A study of Mus musculus with 8 samples.

Results

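The proteasome genes of mouse liver are described here, that is, every row of the FPKM table whose symbol is Psma, Psmb, Psmc, Psmd, Psme or Psmf followed by digits. This rule gave 44 of the 33467 genes listed. They comprised 14 constitutive genes of the 20S core, 17 of the 19S regulatory particle, 5 immune members (Psmb8, Psmb9, Psmb10, Psme1 and Psme2), 3 genes for chaperones that assemble the 19S particle, 3 for other activators or an inhibitor, and 2 tissue-restricted core genes. The livers came from 8 wild-type C57BL/6J mice, 4 on a standard diet (Control) and 4 fed 1% of DDC, which is 3,5-diethoxycarbonyl-1,4-dihydrocollidine, in the diet, all for 4 weeks. The labels used here do not state the age of the animals. RNA of whole liver tissue was sequenced in 1 batch, per the labels, so a lower value cannot be told apart between fewer cells of a type and less RNA per cell.

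The proteasome degrades proteins tagged with ubiquitin. Its 20S core is a barrel of stacked rings: outer rings of alpha subunits (Psma genes) gate entry, and inner rings of beta subunits (Psmb genes) hold the catalytic sites. The 19S particle caps the barrel, binds and unfolds ubiquitin-tagged proteins, and is built from ATPases (Psmc genes) and other subunits (Psmd genes). Interferon-gamma induces 3 alternative catalytic beta subunits, which take the places of the constitutive ones and shape the peptides that MHC class I molecules present, and it also induces the PA28 activator (Psme1, Psme2). DDC blocks haem synthesis, makes porphyrin accumulate in bile ducts, and is used as a model of cholestatic injury and biliary fibrosis. Hepatocytes of mice fed DDC are known for inclusions of keratin, ubiquitin and the autophagy receptor p62.

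Levels are given as FPKM, the authors' fragment values per gene length and library depth, or as CPM, a gene's count scaled to a common library size after TMM scaling, which rescales the library totals so that most genes do not differ. Libraries held between 61179103 and 81664058 counts. TMM factors were 0.792 to 0.815 for control and 1.21 to 1.27 for DDC libraries, so the scaling sets many directions. The median log2 fold change of the 19535 tested genes was 0.07 with TMM and 0.70 with library totals alone, a shift of 0.62. FPKM follows the library totals. Of all tested genes, edgeR's quasi-likelihood test at a Benjamini-Hochberg adjusted p under 0.05 called 30.2% higher and 26.6% lower in DDC with TMM, against 58.9% higher and 8.96% lower with library totals alone. A pair of measures does not depend on this choice, namely the ratio of a pair of genes within a library and the position of a gene relative to the median gene.

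Some libraries stood apart from others of their group. Controls 1 and 3 differed little from each other (chi-square per degree of freedom over genes 12.7), whereas the other control pairs differed by 57.4 to 201 on that measure. DDC 1 differed from the other DDC libraries by 81.8 to 90.05, and these differed among themselves by 14.8 to 20.8. Results that follow the control split are therefore given again without controls 1 and 3 and without controls 2 and 4, a choice made after seeing the data. Without controls 1 and 3, 5 proteasome genes were called higher and 15 lower (24.1% and 21.7% of all genes), and without controls 2 and 4, 4 and 21 (25.4% and 23.3% of all genes). Hepatocyte genes defined the tissue in every library: the summed level of 9 markers was 141564 to 170168 CPM in controls and 67171 to 81753 CPM in DDC.

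Of the 44 genes, 43 passed the filter on low counts. With TMM, 4 were called higher in DDC (Psmb9, Psmd8, Psmd10 and Psmd14), 9.30% of those tested against 30.2% of all genes, and 18 lower, 41.9% against 26.6%. With library totals alone, 40 were called higher, 93.0% against 58.9% of all genes, and 1, Psmd9, lower. Of the 18 lower with TMM, 15 were called higher with library totals alone, and Psmb7 and Psme4 had no call there. In all 22 fits that were run, with other scalings, filters and tools and with libraries left out, Psmb9, Psmd8 and Psmd10 were called higher and Psmd9 was called lower. The groups of TMM-scaled CPM did not overlap for 22 of the 43 genes, a share close to the 52.6% of all tested genes for which this held. In FPKM, 41 of the 43 tested genes had groups apart, against 62.3% of all tested genes. Relative to the median gene, 28 of the 31 constitutive core and 19S genes lay below it with TMM. Their median log2 fold change was 0.25 under that of all genes, with either scaling.

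**Figure D1:**
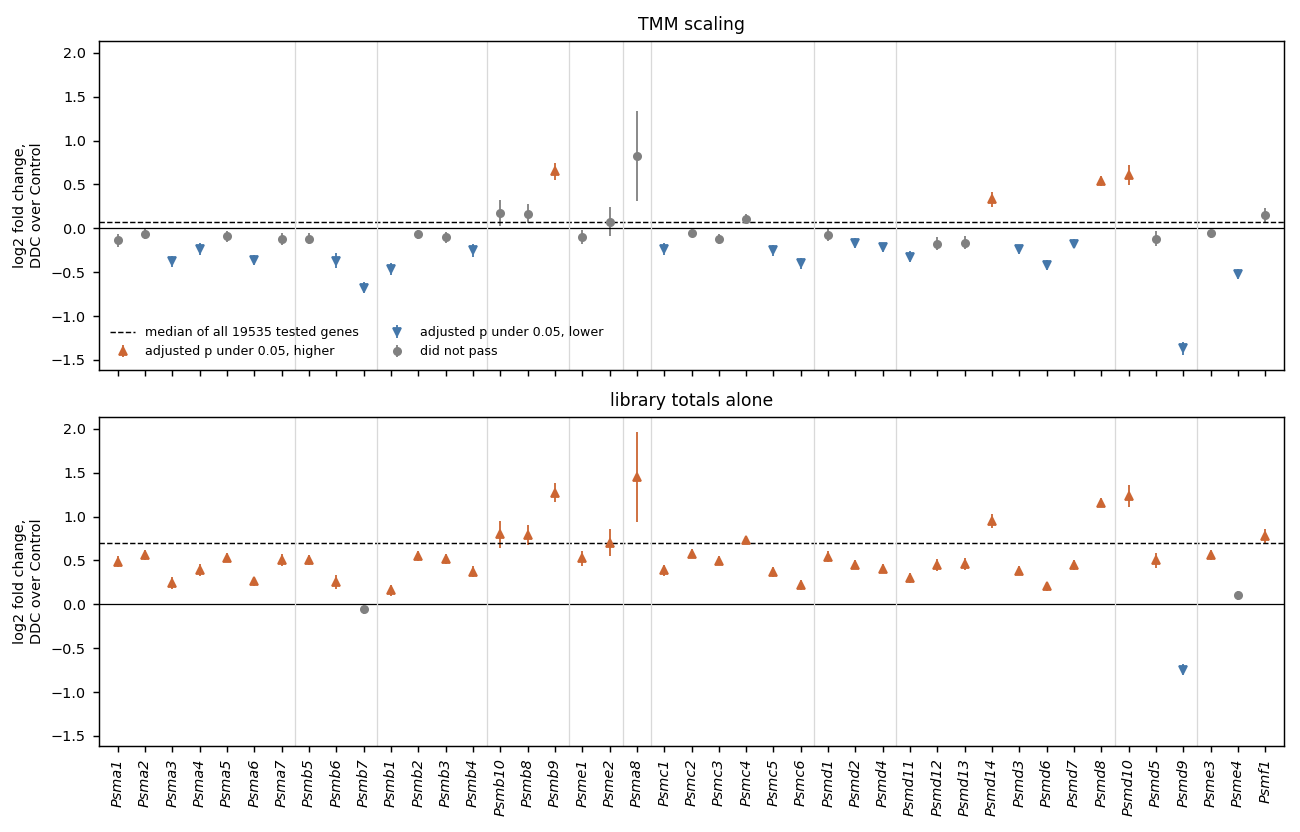
Log2 fold change of DDC over control for the 43 tested proteasome genes, with TMM scaling (top) and with library totals alone (bottom). Points are estimates and bars their standard errors, triangles mark an adjusted p under 0.05, and the dashed line is the median of all 19535 tested genes, at 0.07 and 0.70. The order of the genes is alike in both panels while the zero line moves past most of them.

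The immune catalytic subunits stood higher against their constitutive counterparts in DDC livers for 2 of the 3 pairs. Psmb9 rose 2.01-fold relative to Psmb6, the caspase-like subunit it replaces, and Psmb10 rose 1.84-fold relative to Psmb7, the trypsin-like one. The ratio of Psmb8 to Psmb5, the chymotrypsin-like pair, was 1.23-fold higher with overlapping groups. Differences were tested in the log2 ratio of FPKM within each library by an exact two-sided permutation test, adjusted over the 3 pairs. This exact permutation test, over the 70 assignments of 4 against 4, cannot go below p = 0.0286. Groups that do not overlap reach that limit. How often ratios of other gene pairs separate the groups was not tested. For FPKM over the geometric mean of the 7 alpha ring genes, groups were apart for 52.5% of all genes so compared. Separation of the groups is thus common among genes and is not by itself particular to these pairs.

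Psmb9 (ENSMUSG00000096727, chr17:34181987-34187764, minus strand) had FPKM values of 1.79, 1.68, 1.78 and 1.56 in controls 1 to 4 and 3.78, 3.77, 4.79 and 4.11 in DDC 1 to 4. Psmb6 (ENSMUSG00000018286, chr11:70525367-70527858, plus strand) had 38.5, 29.1, 36.5 and 33.2 FPKM in controls and 41.8, 40.1, 41.8 and 39.5 FPKM in DDC. Psmb9 was thus the minor member of its pair in every library. Its share of the summed FPKM of the pair was 4.76% ± 0.483 (SD, n = 4) in controls and 9.15% ± 0.891 (n = 4) in DDC, and the groups did not overlap. The log2 ratio differed by 1.01 (SE 0.11), a 2.01-fold change (exact permutation p = 0.0286, adjusted over 3 pairs 0.0429), higher in 4 of 4 DDC libraries than in any control. In the fit over all genes Psmb9 moved from 8.05 ± 0.461 to 12.6 ± 1.21 CPM (SD, n = 4 each), a log2 fold change of 0.65 (SE 0.10, edgeR adjusted p = 0.000358), and from 0.57 to 1.27 across the 22 fits. Psmb6 was called lower with TMM (edgeR log2 fold change -0.37, SE 0.09, adjusted p = 0.0053) and higher with library totals alone (0.26, adjusted p = 0.0223).

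Psmb10 (ENSMUSG00000031897, chr8:105935735-105938104, minus strand) had FPKM values of 15.5, 10.7, 16.1 and 10.4 in controls and 20.1, 22.2, 24.6 and 24.3 in DDC. Psmb7 (ENSMUSG00000026750, chr2:38588036-38644087, minus strand) had 22.6, 21.5, 21.6 and 22.5 FPKM in controls and 21.5, 22.1, 21.5 and 19.5 FPKM in DDC. Psmb10 is high in controls 1 and 3 and low in controls 2 and 4, while Psmb7 is alike in all 4. The share of Psmb10 in its pair was 37.0% ± 5.45 (SD, n = 4) in controls and 51.8% ± 3.22 (n = 4) in DDC, so that it passed Psmb7 in DDC 2, 3 and 4 but not in DDC 1, at 48.3%. The log2 ratio differed by 0.88 (SE 0.19), with groups apart (exact permutation p = 0.0286, adjusted over 3 pairs 0.0429). It differed by 1.17 without controls 1 and 3 and by 0.59 without controls 2 and 4. Psmb10 itself was not called with TMM (28.9 ± 6.56 and 32.55 ± 2.41 CPM, SD, n = 4 each; edgeR log2 fold change 0.17, SE 0.15, adjusted p = 0.337) and was called higher with library totals alone (0.80, adjusted p = 0.00126). With TMM it was called higher without controls 1 and 3 (0.48, edgeR adjusted p = 0.00301), and its value was -0.10 without controls 2 and 4 (adjusted p = 0.345). Psmb7 was called lower with TMM (edgeR log2 fold change -0.68, SE 0.06, adjusted p = 1.55e-05) and had no call with library totals alone (-0.05, adjusted p = 0.424). Psmb7 shares 405 exonic bases, on the opposite strand, with Nek6, whose log2 fold change was 0.69, and the sources used here do not say whether reads were assigned by strand.

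Psmb8 (ENSMUSG00000024338, chr17:34197721-34201454, plus strand) had FPKM values of 6.76, 4.92, 7.15 and 6.01 in controls and 10.4, 10.6, 11.4 and 10.4 in DDC. Psmb5 (ENSMUSG00000022193, chr14:54614119-54618022, minus strand) had 43.5, 44.6, 43.5 and 44.4 FPKM in controls and 60.7, 66.0, 64.0 and 58.0 FPKM in DDC. The share of Psmb8 was 12.4% ± 1.86 (SD, n = 4) in controls and 14.7% ± 0.656 (n = 4) in DDC, and DDC 2, at 13.8%, lay below control 3, at 14.1%. The difference in log2 ratio was 0.30 (SE 0.13; exact permutation p = 0.0571, adjusted over 3 pairs 0.0571). Like Psmb10, it followed the control split, with 0.49 without controls 1 and 3 and 0.11 without controls 2 and 4. Psmb8 was not called with TMM (27.0 ± 4.30 and 30.3 ± 1.17 CPM; edgeR log2 fold change 0.17, SE 0.11, adjusted p = 0.217) and was called higher with library totals alone (0.79, adjusted p = 0.000152). With TMM it gained a call without controls 1 and 3 (0.34, edgeR adjusted p = 0.0317), and the value was -0.002 without controls 2 and 4 (adjusted p = 0.978). Psmb5 was not called with TMM either (log2 fold change -0.12, SE 0.06, adjusted p = 0.124).

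**Figure D2:**
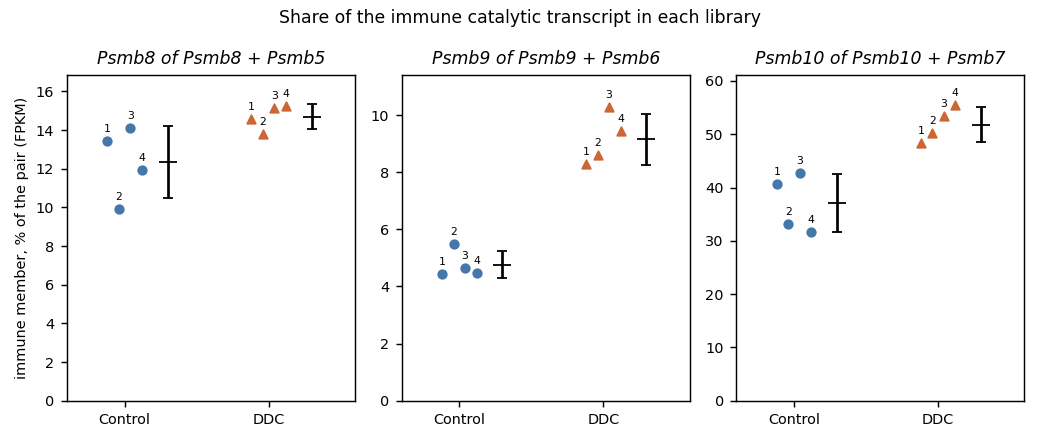
Share of the immune member in the summed FPKM of each catalytic pair, in percent, for every library (numbers give the replicate), with the mean and SD of each group of 4 beside the points. The Psmb9 and Psmb10 shares of the groups are apart, at 4.76% against 9.15% and 37.0% against 51.8%, and the Psmb8 shares overlap.

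RefSeq start windows of some of these catalytic genes are printed because the pairs differ in which factors are known to act on them. The windows run from 250 bases before to 50 after the start (GRCm38.p6). The 2 short motifs searched on both strands were TGACNNNGC, the core of the antioxidant response element that NRF1 and NRF2 bind, and the core of the interferon-stimulated response element, which is GAAA, a pair of any bases, and GAAA again. Capitals mark a match. Psmb9 and Tap1, a peptide transporter gene, face away from each other, and their windows share 275 bases on opposite strands, so that the Psmb9 window is nearly that of Tap1. The windows span chr17:34187281-34187580 on the minus strand for Psmb9, chr17:34197945-34198244 on the plus strand for Psmb8, chr14:54617946-54618245 on the minus strand for Psmb5 and chr11:70525107-70525406 on the plus strand for Psmb6. The window of Psmb10 lies outside the interval that the deposited table gives that gene, and is not printed. Those of Psmb9 and Psmb8 lie wholly inside the deposited intervals of these genes. The windows of Psmb5 and Psmb6 span the deposited starts, so the printed windows do not cover like regions.
Psmb9: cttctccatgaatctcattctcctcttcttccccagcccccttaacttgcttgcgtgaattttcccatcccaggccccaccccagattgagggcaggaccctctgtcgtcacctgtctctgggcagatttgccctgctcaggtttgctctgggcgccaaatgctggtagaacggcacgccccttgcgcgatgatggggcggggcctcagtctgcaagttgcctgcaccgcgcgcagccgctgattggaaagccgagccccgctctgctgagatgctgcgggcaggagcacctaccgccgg
Psmb8: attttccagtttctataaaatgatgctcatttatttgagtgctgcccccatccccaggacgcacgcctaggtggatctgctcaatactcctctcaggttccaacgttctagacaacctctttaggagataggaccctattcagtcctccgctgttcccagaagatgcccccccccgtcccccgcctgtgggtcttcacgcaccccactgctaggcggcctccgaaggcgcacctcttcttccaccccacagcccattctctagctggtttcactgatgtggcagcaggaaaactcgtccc
Psmb5: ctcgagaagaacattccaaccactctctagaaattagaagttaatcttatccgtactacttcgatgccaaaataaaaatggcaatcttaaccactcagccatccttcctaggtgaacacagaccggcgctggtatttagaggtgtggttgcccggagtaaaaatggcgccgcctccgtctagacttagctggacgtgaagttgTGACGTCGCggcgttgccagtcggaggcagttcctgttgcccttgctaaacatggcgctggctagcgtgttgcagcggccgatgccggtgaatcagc
Psmb6: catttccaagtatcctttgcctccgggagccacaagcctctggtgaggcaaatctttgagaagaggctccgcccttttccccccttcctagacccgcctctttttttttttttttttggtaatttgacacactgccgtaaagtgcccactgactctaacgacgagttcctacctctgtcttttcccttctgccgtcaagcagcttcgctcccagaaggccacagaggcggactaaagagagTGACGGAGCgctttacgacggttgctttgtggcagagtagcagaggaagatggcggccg
Psmb5 and Psmb6 each hold 1 match to the antioxidant response element core. No window is printed for Psmb7, the other constitutive catalytic gene, and it is not among the genes with a match to either motif. The Psmb9 and Psmb8 windows hold neither motif, which says only that these letters are not in them. Over the 37 proteasome genes with a window, 40 windows in all, TGACNNNGC occurred in 6 of them (15%), against 12.4% of all 32851 windows. The interferon-stimulated core occurred in 4 of them (10%), against 3.44% of all windows. These were windows of Psmb3, Psmd4, Psmd9 and the immune member Psme1. A match is a description of letters and not a site of binding.

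Tap1, the neighbour of Psmb9, was also higher in DDC, from 17.4 ± 3.26 to 32.1 ± 2.96 CPM (SD, n = 4 each, edgeR log2 fold change 0.88, SE 0.13, adjusted p = 0.000305). Among the controls, control 1 was the highest for Psmb9 (8.48 CPM, with control 3 close at 8.37 CPM) and the lowest for Tap1 (14.1 CPM). Among the DDC libraries, DDC 3 was the highest for both, at 14.4 CPM for Psmb9 and 36.0 CPM for Tap1. The 2 genes also share 212 exonic bases on opposite strands, 5.79% of the exonic length of Psmb9, and Tap1 had more counts than Psmb9 in both groups. Of 12 genes of MHC class I presentation, 4 were higher (Tap1, Tap2, Tapbp and Tapbpl, the peptide transporter and its loading factors), 5 were lower and 3 were not called with TMM, with a median log2 fold change of 0.01 against 0.07 for all genes. The background for these list counts is 30.2% of all genes higher and 26.6% lower with TMM, and 58.9% and 8.96% with library totals alone, and the share of this list called higher is close to it with either scaling. The lower ones included the heavy chain H2-K1, from 1671 ± 80.6 to 848 ± 45.1 CPM (edgeR log2 fold change -0.98, SE 0.07, adjusted p = 1.74e-06). They also included Canx, a lectin chaperone of the heavy chain (-0.79), and B2m, the light chain (-0.71), both of which had no call with library totals alone. With library totals alone 8 of the 12 were higher and 1, H2-K1, lower.

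Of 17 genes of interferon-gamma signalling and its targets, 16 were tested, and 13 were higher and 3 not called with edgeR and TMM, with a median log2 fold change of 1.42. All 16 were higher with library totals alone. Cxcl10, a T cell attracting chemokine, had 2.72, 2.80, 2.47 and 2.60 CPM in controls and 11.2, 13.0, 18.8 and 14.7 CPM in DDC (edgeR log2 fold change 2.45, SE 0.17, adjusted p = 1.68e-06). Gbp2, an interferon-induced GTPase, had a log2 fold change of 2.28, Ciita, the activator of MHC class II genes, 2.03, and the receptor chain Ifngr1 1.605. These 4 are the largest called values among the list's genes at 1 CPM or more in the higher group. At the other end Iigp1 (0.12), another interferon-induced GTPase, and the receptor kinases Jak1 (0.12) and Jak2 (0.27), named after their values were seen, had no call with TMM. Ifng itself was not tested and did not exceed 0.142 CPM in any library.

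Markers of cell types went in both directions with TMM, where 30.2% of all genes were higher and 26.6% lower. All 10 pan-leukocyte markers were higher, with a summed level of 171 to 184 CPM in controls and 602 to 639 CPM in DDC, and all 8 macrophage and monocyte markers were higher, from 196 to 243 CPM against 1452 to 1549 CPM. Of 9 tested T and NK cell markers 3 were higher, a share close to that of all genes, and 6 not called (summed 5.82 to 7.96 CPM against 13.2 to 15.6 CPM). Of 4 B cell markers 3 were lower (1.78 to 3.41 CPM against 0.994 to 1.44 CPM). Cholangiocyte markers (6 of 7 higher, 83.0 to 164 CPM against 722 to 1103 CPM), endothelial markers (4 of 6 higher, 101 to 127 CPM against 129 to 178 CPM) and fibroblast and stellate cell markers (7 of 7 higher, 201 to 315 CPM against 1024 to 1208 CPM) were higher as well, while 9 of 9 hepatocyte markers were lower, 7 of them also with library totals alone. None of these markers was at 0 in all controls. Their part in the proteasome results was not tested.

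The PA28 activator genes, whose products open the core to peptides without ubiquitin, were not called with TMM. Psme1 (ENSMUSG00000022216) had 40.3, 31.9, 39.3 and 33.3 FPKM in controls and 53.2, 49.9, 52.8 and 51.4 FPKM in DDC. Its log2 fold change was -0.10 (SE 0.08, edgeR adjusted p = 0.316) with TMM, 0.52 with library totals alone (adjusted p = 0.000346), and -0.24 without controls 2 and 4 (adjusted p = 0.0074). Psme2 (ENSMUSG00000079197) had 23.7, 13.4, 19.4 and 22.02 FPKM in controls and 32.0, 29.1, 35.3 and 30.8 FPKM in DDC. Control 2 is the low library, and the log2 fold change of 0.08 (SE 0.16, edgeR adjusted p = 0.70) with TMM turned to -0.08 without it. With library totals alone Psme2 was called higher (0.70, edgeR adjusted p = 0.0033). Psme2 has a near-identical copy, Psme2b on chromosome 11, with 99.4% identity over 794 aligned bases, so counting could split their reads. Psme2b had 12.4, 21.2, 20.9 and 10.8 CPM in controls and was high in controls 2 and 3, while Psme2 was low in control 2. The TMM-scaled CPM of both together, a sum chosen after seeing the data, was 60.9 ± 6.76 in controls and 59.3 ± 3.16 in DDC (SD, n = 4 each; exact permutation p = 0.657).

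The 7 alpha ring genes (Psma1 to Psma7) lay close together. Their mean levels spanned 12.9 to 52.2 FPKM in the control group and 15.2 to 62.2 FPKM in the DDC group. With TMM their log2 fold changes lay between -0.38 and -0.06, all below the median gene. Of the 7, 3 were called lower and 4 had no call, while all 7 were called higher with library totals alone (0.24 to 0.56). Psma3 was the lowest, at 62.1, 62.5, 69.3 and 63.5 CPM in controls and 54.6, 48.0, 46.3 and 49.2 CPM in DDC (edgeR log2 fold change -0.38, SE 0.07, adjusted p = 0.000948), with groups apart. Psma2 was closest to 0 (-0.06, SE 0.06, adjusted p = 0.411), with overlapping groups.

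Of the 4 non-catalytic beta genes, which shape the ring, Psmb1 and Psmb4 were lower with TMM, Psmb2 and Psmb3 had no call, and all 4 were higher with library totals alone. Psmb1 had 116, 100.05, 116 and 114 CPM in controls and 83.5, 84.2, 81.0 and 75.4 CPM in DDC (edgeR log2 fold change -0.46, SE 0.07, adjusted p = 0.000268; 0.16 with library totals alone). Psmb2 had a log2 fold change of -0.07 (SE 0.05, adjusted p = 0.292). Of the 3 constitutive catalytic genes, Psmb7 and Psmb6, given above, were lower with TMM.

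**Figure D3:**
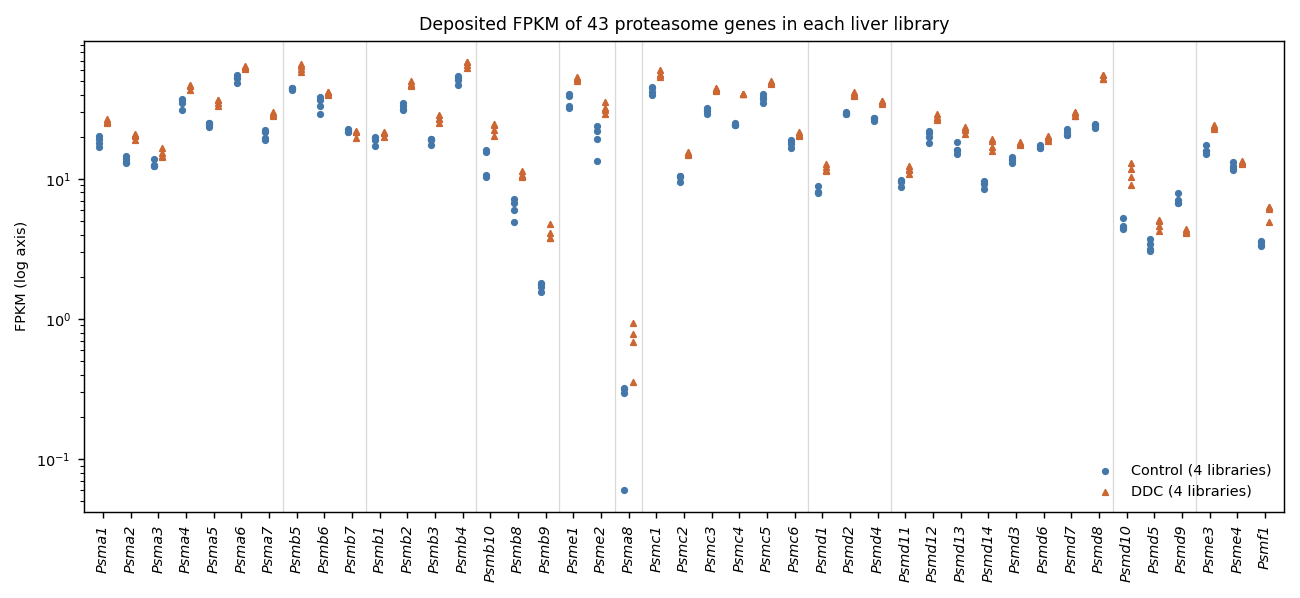
Deposited FPKM (log axis) of the proteasome genes in each library, 4 control (circles) and 4 DDC (triangles), ordered by role with grey lines between roles. Psmb11, at 0 in 7 libraries, is not drawn. Most genes lie between 10 and 70 FPKM with the DDC libraries above the controls on this scale, and Psmd9 is the gene whose DDC values lie clearly below.

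Scaling to the geometric mean of the 7 alpha ring genes, added after seeing the data, sets the other subunits against the core itself. On this scale 9 of the 43 genes (20.9%) were called higher and 7 (16.3%) lower, against 37.3% and 18.6% of all genes. These counts include the 7 alpha ring genes, whose values are held near 0 as the reference. Calls of alpha ring genes are not read, and 1 of the 7 lower genes, Psma6, is such a gene. In FPKM over the alpha ring mean, groups were apart for 16 of the 43 tested genes, 3 of them of the alpha ring, against 52.5% of all genes so compared. All 3 immune catalytic genes were called higher relative to the alpha ring, though their levels stayed below its mean in both groups. They were Psmb9 (edgeR log2 fold change 0.85, SE 0.11, adjusted p = 0.00014), Psmb8 (0.37, SE 0.09, adjusted p = 0.0072) and Psmb10 (0.38, SE 0.14, adjusted p = 0.0414). The log2 FPKM of Psmb10 over the alpha ring mean overlapped between groups, with DDC 1 at -0.601 and control 3 at -0.517. Omission of controls was not repeated with this scaling. The other 6 higher genes were Psmc2, Psmc4, Psmd8, Psmd14, Psmd10 and Psmf1. Among the lower ones were Psmb7 (-0.48), Psmb1 (-0.26), Psmc6 (-0.20), Psmd6 (-0.22), Psmd9 (-1.17) and Psme4 (-0.33).

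**Figure D4:**
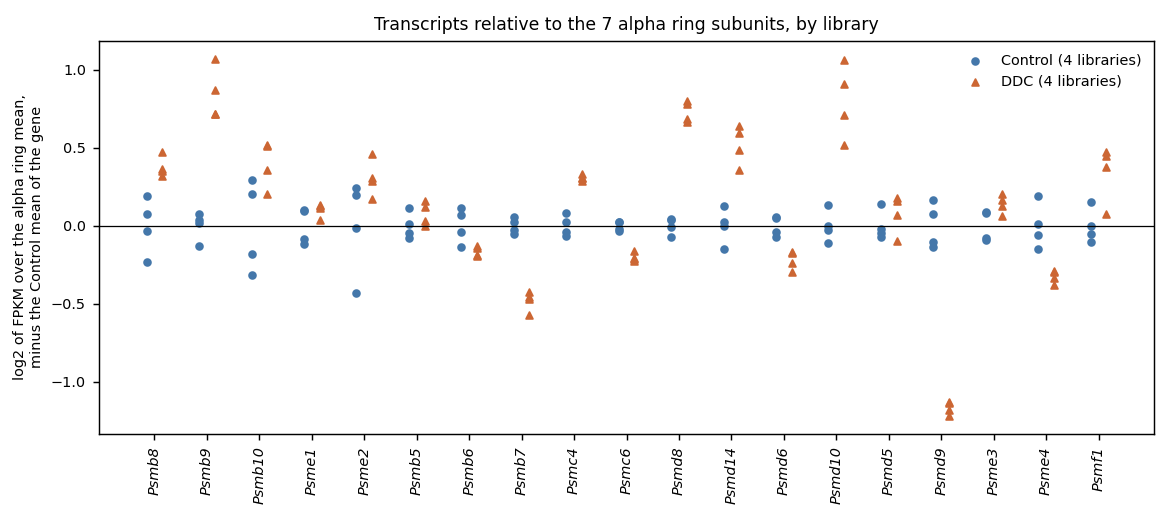
Log2 of the FPKM of a gene over the geometric mean of the 7 alpha ring genes in the same library, minus the control mean of that gene, for 4 control (circles) and 4 DDC (triangles) libraries. The DDC values of Psmb8, Psmb9, Psmc4, Psmd8, Psmd14 and Psmd10 lie above all their controls, those of Psmb7, Psmc6, Psmd6, Psmd9 and Psme4 lie below, and the groups of the other genes drawn overlap.

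In the 19S base, the 6 ATPase genes that unfold substrates were lower for Psmc1, Psmc5 and Psmc6 and not called for Psmc2, Psmc3 and Psmc4 with TMM, and all 6 were higher with library totals alone. Psmc6 had 85.4, 73.3, 79.3 and 83.6 CPM in controls and 61.7, 64.6, 58.6 and 58.7 CPM in DDC (edgeR log2 fold change -0.40, SE 0.06, adjusted p = 0.000522), with groups apart. Psmc4 stood at the other end, at 67.9, 66.7, 66.8 and 70.7 CPM in controls and 74.1, 75.6, 71.7 and 72.3 CPM in DDC, also with groups apart but without a call (0.11, SE 0.05, edgeR adjusted p = 0.0742). It was called higher with upper-quartile scaling (0.17, adjusted p = 0.0107), without a count filter (0.15, adjusted p = 0.0489) and with the filter of 1 CPM in 4 libraries (0.14, adjusted p = 0.0251). Of the non-ATPase base genes, Psmd2 and the ubiquitin receptor Psmd4 were lower with TMM (Psmd4 -0.22, SE 0.05, adjusted p = 0.00596), and Psmd1, a large scaffold subunit, had no call (-0.08, SE 0.07, adjusted p = 0.329). All 3 were higher with library totals alone.

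The 19S lid divided. Psmd8 (ENSMUSG00000030591, chr7:29174188-29180673, minus strand), a lid subunit, rose with either scaling. It had 94.0, 89.7, 95.0 and 99.4 CPM in controls and 134, 146, 129 and 139 CPM in DDC, with groups apart. Its log2 fold change was 0.54 (SE 0.06, edgeR adjusted p = 4.29e-05) with TMM and 1.16 with library totals alone. Psmd14, the enzyme that removes ubiquitin chains from substrates as they enter, had 35.3, 33.6, 30.4 and 34.0 CPM in controls and 46.4, 45.2, 36.3 and 39.5 CPM in DDC. All DDC values lay above the controls, with DDC 3 closest (0.33, SE 0.09, edgeR adjusted p = 0.0104). Its call was lost without controls 1 and 3 (0.30, adjusted p = 0.0592). Psmd6, a structural lid subunit, was the lowest of the lid genes, from 61.1 ± 2.83 to 45.8 ± 2.14 CPM (-0.42, SE 0.06, edgeR adjusted p = 0.000191), and higher with library totals alone (0.21, adjusted p = 0.0054). Psmd3, Psmd7 and Psmd11 were also lower with TMM, Psmd12 and Psmd13 had no call, and all 8 lid genes were higher with library totals alone. Psmd13 shares 342 exonic bases on the opposite strand with Sirt3, whose log2 fold change was -1.82.

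The 3 genes for chaperones that assemble the 19S base went in different directions. Psmd10 (gankyrin, ENSMUSG00000031429, chrX:140948429-140956728, minus strand) had 8.56, 8.19, 9.84 and 8.90 CPM in controls and 11.3, 13.0, 14.2 and 15.6 CPM in DDC, with groups apart. Its log2 fold change was 0.61 (SE 0.12, edgeR adjusted p = 0.0015), and it was called higher in all 22 fits. Psmd9 (ENSMUSG00000029440, chr5:123169413-123248527, plus strand) had 63.1, 64.6, 62.6 and 76.0 CPM in controls and 25.5, 27.2, 24.9 and 25.6 CPM in DDC. It fell 2.58-fold (edgeR log2 fold change -1.37, SE 0.07, adjusted p = 4.13e-07), the largest change of any proteasome gene that was called, and by 0.74 on the log2 scale with library totals alone. The interval annotated for Psmd9 contains the whole of Hpd, a tyrosine-degrading enzyme gene of hepatocytes on the opposite strand, which went from 3126 ± 109 to 538 ± 40.7 CPM (log2 fold change -2.54). The 2 genes share 0 exonic bases in the GENCODE M21 annotation, and the part of Hpd reads in the Psmd9 value was not tested. Psmd5 had no call (-0.12, SE 0.09, edgeR adjusted p = 0.259).

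Of the other regulators, Psme4 (PA200), an activator that caps the core without ATP, was lower with TMM, at 124, 139, 128 and 136 CPM in controls and 90.7, 96.6, 89.4 and 91.0 CPM in DDC (edgeR log2 fold change -0.52, SE 0.06, adjusted p = 4.33e-05). It had no call with library totals alone (0.10, adjusted p = 0.132). Psme3, the nuclear PA28 gamma activator, had no call with TMM (-0.06, SE 0.05, edgeR adjusted p = 0.372). Psmf1, which encodes the inhibitor PI31, had 27.9, 29.5, 29.0 and 28.3 CPM in controls and 27.0, 33.5, 33.4 and 33.6 CPM in DDC. DDC 1 lay below all controls and the other DDC libraries above them. The log2 fold change was 0.15 (SE 0.08, edgeR adjusted p = 0.123), and 0.20 without DDC 1 (adjusted p = 0.0145). Psma8, the alpha subunit of the testis, was near the detection limit (0.196 to 1.05 CPM in controls, 0.749 to 1.94 CPM in DDC; log2 fold change 0.82, SE 0.51, adjusted p = 0.192). Psmb11, the catalytic subunit of the thymic cortex, was listed at 0 FPKM in all libraries but DDC 1, at 0.0126 FPKM.

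Most genes of a list around NRF1, a control of proteasome transcription, were lower with TMM. NRF1 (Nfe2l1) is the factor that raises proteasome genes when the proteasome is short; it is drawn out of the ER membrane by p97 (Vcp), deglycosylated by Ngly1 and cleaved by the protease Ddi2. Of 9 genes of this list 8 were lower and 1, Mafk, not called with edgeR and TMM, with a median log2 fold change of -0.76 against 0.07 for all genes. Ddi2 had 400.3, 402, 421 and 423 CPM in controls and 169, 160, 158 and 157 CPM in DDC (edgeR log2 fold change -1.36, SE 0.06, adjusted p = 1.08e-07). Maff, a small MAF partner, had -1.30, Nfe2l1 -0.90 and Syvn1, an ER ubiquitin ligase that turns NRF1 over, -0.85. These 4 were also lower with library totals alone, where Vcp and Mafk were higher and 3 had no call.

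Of 18 other assembly factors and proteasome-associated proteins, 12 were lower, 1 higher and 5 not called with TMM (median log2 fold change -0.22), while 13 were higher and 5 not called with library totals alone. The count of 12 was 7 to 11 when 1 library was left out, with 7 without DDC 3, and 7 without controls 1 and 3. The gene higher with TMM was Ubqln2, a shuttle that brings ubiquitin-tagged proteins to the proteasome, from 16.6 ± 0.613 to 36.3 ± 5.14 CPM (edgeR log2 fold change 1.13, SE 0.10, adjusted p = 8.5e-06). The related shuttle Ubqln4 (-0.56) and Txnl1, a thioredoxin of the 19S particle (-0.48), were lower with TMM and had no call with library totals alone. Of 9 genes of ubiquitin supply and p97, 5 were lower and 4 not called with TMM (median -0.35). With library totals alone 6 were higher and 1 lower. Nploc4, a p97 cofactor (-0.56), and Ubb, a gene of ubiquitin itself (-0.44), were lower with TMM. With library totals alone Nploc4 had no call and Ubb was higher (0.18).

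Of 13 autophagy genes, the other main route of protein breakdown, 9 were lower and 4 not called with edgeR and TMM (median log2 fold change -0.30), and 7 were higher and 4 lower with library totals alone. The 4 that were lower with either scaling were Gabarapl1, Ulk1, Map1lc3b and Gabarapl2. Gabarapl1, which coats autophagosomes, went from 427 ± 64.5 to 161 ± 29.9 CPM (edgeR log2 fold change -1.41, SE 0.14, adjusted p = 2.71e-05), and the initiating kinase Ulk1 from a mean of 141 to one of 54.0 CPM (-1.38, SE 0.07, adjusted p = 2.37e-07). Sqstm1, which encodes p62, was not called with TMM (-0.15, SE 0.09, edgeR adjusted p = 0.159) and was called higher with library totals alone (0.47, adjusted p = 0.000523). It is named outside the rule for named genes, as the receptor found in DDC inclusions.

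**Figure D5:**
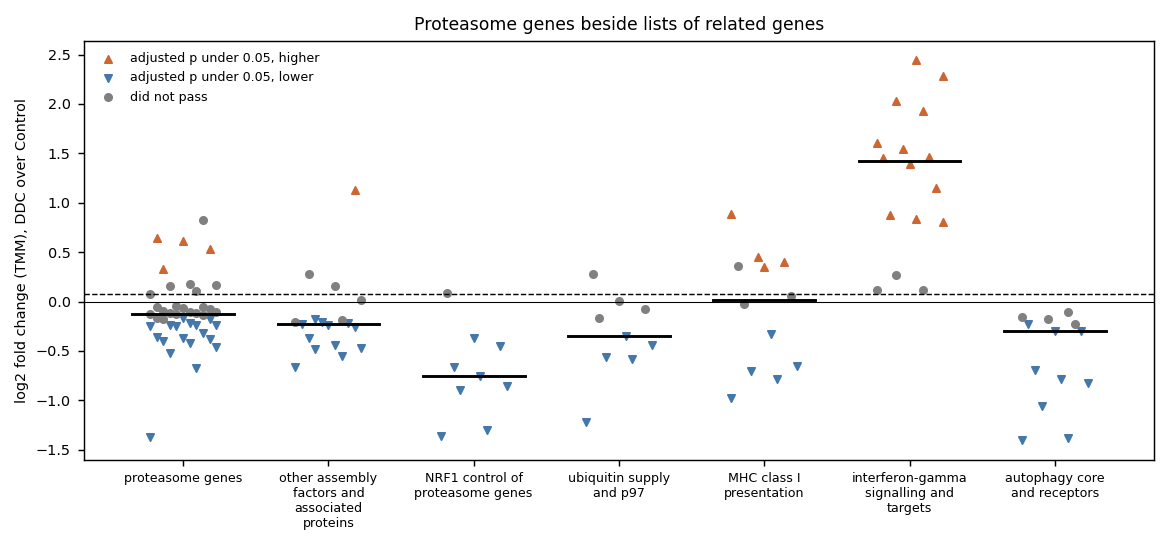
Log2 fold changes with TMM scaling (DDC over control) of the tested proteasome genes and of the tested genes of 6 related lists, 1 point a gene, with bars at the median of each list and a dashed line at the median of all genes (0.07). The interferon-gamma list lies highest, with a median of 1.42, and the NRF1 list lowest, with -0.76.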

How the data were processed

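Libraries of polyadenylated RNA, with second strands made with dUTP, were sequenced in pairs of reads, per the labels' protocols. The authors deposited whole-number counts per gene, not normalized. The authors also deposited FPKM values, counts scaled by gene length and library depth. The submitters' processing notes name cutadapt, FastQC, HISAT2, StringTie and DESeq2, without versions, and the builds GRCm38 and mm10. Start and end of 37 of the 44 genes equal those of GENCODE M21. In that annotation 10 of the genes share exonic bases with another listed gene, and 5 do so with one that has at least 10% of their own control count.

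The counts of all 8 libraries were fitted with edgeR 4.0.16 (R 4.3.3) with TMM, filterByExpr and a robust quasi-likelihood fit, without covariates. Tests were two-sided, with Benjamini-Hochberg adjustment over 19535 genes. CPM are TMM-scaled. Ratios used FPKM and exact permutation tests (scipy 1.17.1). Alternatives were DESeq2 size factors, library totals alone, upper-quartile scaling, no filter, a filter of 1 CPM in 4 libraries, DESeq2 1.42.0, limma 3.58.1 with voom or on log2(FPKM + 1) and log2(FPKM + 0.1), a replicate block and omission of each library. Scaling to the alpha ring and omission of 2 controls at a time were added after seeing the data. Replicates are separate animals, per the labels, and all differed by more than sampling noise.

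The genes, their roles and the lists were chosen with earlier results of these data known. Named with values are the immune members, their counterparts, the other activators, and in each role the highest and lowest gene and any called against most of its role. In each related list up to 4 called genes at 1 CPM or more are named, with the largest one called against the majority. Some genes that this rule names are not reported here, but they stay in the counts and medians of their lists. The fit was tested on simulated counts. False calls exceeded the limit set when dispersions came from the controls alone, and recovery then missed its limit when they came from all libraries. The simulation and the recovery limit were both changed after these failures were seen. Promoter windows are those of RefSeq.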

Additional observations from a re-analysis of the deposited data

Results flagged for a closer look

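In 56 groups of 4 libraries, the named proteasome genes and the 3 ratios were searched for a library far from the others of its group, by the gap to the nearest value over the range of the group (Dixon's test). Chance flags about 1 in 20 such groups, and 5 were found. Psmf1, the gene of the inhibitor PI31, had 27.0 CPM in DDC 1 against 33.4 to 33.6 CPM in the other DDC libraries, and DDC 1 is also the library that stood apart over all genes. Psma8, the testis alpha subunit, was at 0.196 CPM in control 2, and at 0.991 to 1.05 CPM in its group otherwise. Psmb1, a non-catalytic beta subunit, had 100.05 CPM in control 2, and 114 to 116 CPM elsewhere in that group. Psmd1, a 19S scaffold subunit, reached 82.2 CPM in control 3, with 74.8 to 75.8 CPM in controls 1, 2 and 4. Psmd9, a 19S assembly chaperone, reached 76.0 CPM in control 4, with 62.6 to 64.6 CPM in controls 1 to 3. Without control 4 its log2 fold change was -1.31.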

How the results depend on the processing

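The scaling of libraries decided most directions. Over all genes, 11505 higher and 1750 lower calls came from library totals alone, 11639 and 1809 from limma on log2(FPKM + 1) and, on log2(FPKM + 0.1), 11581 and 1821, against 5893 and 5205 with TMM. Proteasome genes were 40 higher and 1 lower in each of these 3 fits, and 9 and 7 with alpha ring scaling. Of the 77 tested genes of the 6 related lists, 18 were higher and 39 lower with TMM, 52 and 10 with library totals, 50 and 10 on log2(FPKM + 1), 50 and 11 on log2(FPKM + 0.1), and 25 lower with alpha ring scaling. Log2 fold changes that turned positive, in the order library totals alone, log2(FPKM + 1) and log2(FPKM + 0.1), were Psme1 0.52, 0.51 and 0.52, Psmb5 0.51, 0.49 and 0.50, Psmb6 0.26, 0.25 and 0.26, Psme3 0.57, 0.53 and 0.56, Psme4 0.10, 0.089 and 0.095, Psma2 0.56, 0.53 and 0.55, Psma3 0.24, 0.22 and 0.24, Psmb2 0.55, 0.53 and 0.55, Psmb1 0.16, 0.15 and 0.15, Psmc6 0.22, 0.21 and 0.22, Psmd1 0.54, 0.49 and 0.53, Psmd4 0.41, 0.39 and 0.40, Psmd6 0.21, 0.19 and 0.20 among proteasome genes and Ubqln4 0.067, 0.055 and 0.0595, Txnl1 0.14, 0.14 and 0.15, Nploc4 0.065, 0.053 and 0.056, Ubb 0.18, 0.17 and 0.17 among the others. With alpha ring scaling those of Psme1 0.10, Psmb5 0.078, Psme3 0.14, Psma2 0.14, Psmb2 0.13, Psmd1 0.11 turned positive, and with upper-quartile scaling those of Psme3 (0.0058) and Psma2 (0.0042). Without controls 1 and 3, Psmb8 (0.34, adjusted p = 0.0317) and Psmb10 (0.48, adjusted p = 0.0030) gained a call with edgeR, Psme1 turned to 0.039 and the log2 ratios were 0.49 for Psmb8 over Psmb5 and 1.17 for Psmb10 over Psmb7. Without controls 2 and 4, Psmb8 turned to -0.0024, Psmb10 to -0.096 and Psme2 to -0.0602, and the log2 ratios were 0.11 and 0.59. Without control 2, Psme2 turned to -0.082. Leaving out 1 library at a time gave 4 to 5 higher and 14 to 21 lower proteasome genes. Psmb4, Psmc1, Psmd2 and Psmd7 lost a call in at least 1 of these fits, all on omission of a DDC library, Psma1, Psmc3, Psmd12, Psmd13 and Psmf1 gained one, and no call changed direction. The log2 ratios of Psmb9, Psmb10 and Psmb8 to their partners then ran from 0.946 to 1.082, 0.76 to 0.99 and 0.19 to 0.38. With 3 against 4 libraries the exact test cannot go below p = 0.0571, so these ratios are values with no test. With the replicate number as a block, 4 proteasome genes were higher and 16 lower, and the replicate block left the 3 log2 ratios at 1.01, 0.88 and 0.30, as it must for means of pairs. Same-numbered libraries correlated at -0.21, -0.18, 0.03 and -0.05, so the number does not pair them. The cause of the differences between scalings was not tested. Psma8 and Psmb11 had the lowest counts of all members, and whether the counting depth sufficed for the others was not tested. Whether reads were assigned by strand was not given, and reads of genes on the opposite strand within Psmb7, Psmb9, Psmd13 and Psmd9 were not measured.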
